A study of Mus musculus with 6 samples.

Results

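Dendritic cells were examined among CD11b+ bone marrow cells that had been profiled by droplet single-cell RNA sequencing from the femur and the mandible of mice. They were taken as the cells that lay in cluster 5 of the deposited clustering at a resolution of 0.1 and that had been given the label DC from the ImmGen reference by the authors, and 174 of the 69776 kept cells met both conditions (0.249%). These cells made up 2.37% of the 7354 cells of cluster 5, which also held 3734 monocyte-labelled, 2529 neutrophil-labelled and 482 macrophage-labelled cells. A DC label without membership of cluster 5 was given to only a few cells, as 177 cells carried it in any cluster.

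All libraries came from C57BL/6 mice aged 2 months, and every library had been enriched for CD11b, the integrin subunit encoded by Itgam, with magnetic beads. The femur group held 1 female and 2 male libraries and the mandible group held 3 male libraries, so that sex and site are partly confounded. Marrow of the mandible group was flushed after the molars had been pulled, and the sockets were flushed as well. For the femur group the labels name tibiae beside femurs and the methods name femurs alone. The sources do not say how many animals went into a library, so the p-values measure the spread between these libraries. The library names give the number 6 to femur replicate 2 as well as to mandible replicate 1, and the number 7 to femur replicate 3 as well as to mandible replicate 2.

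Dendritic cells take up antigen and present it to T cells on MHC class II molecules, and they depend on the cytokine receptor Flt3 for their development in marrow. Conventional dendritic cells are usually divided into a cDC1 type, which carries Xcr1 and Clec9a, and a cDC2 type, which carries Cd209a, Clec10a and Mgl2 in mice and is closer to monocytes in its genes. Plasmacytoid dendritic cells (pDC) carry Siglech, depend on the transcription factor Tcf4, and are known for making type I interferon after sensing viral nucleic acid.

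The 174 cells comprised 35, 23 and 22 cells in femur replicates 1 to 3 and 16, 38 and 40 cells in mandible replicates 1 to 3. Their summed unique molecular identifiers (UMIs, 1 per captured transcript molecule) ranged from 185635 in mandible replicate 1 to 446513 in mandible replicate 3. Below, a level is given in CPM, which is UMIs of a gene per 1000000 UMIs of the same cells in the same library. The median cell had 9479 UMIs and 3002.5 detected genes, close to the 9328.5 UMIs of the monocyte-labelled cells and above the 3823 UMIs of the macrophage-labelled cells. No barcode was shared between DC-labelled cells of different libraries, whereas 500 barcodes were shared between libraries among all kept cells, and 1 DC-labelled cell had a barcode that was also kept in another library.

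The label was checked against 5 markers, namely the MHC class II genes H2-Aa and H2-Ab1, the invariant chain gene Cd74, Flt3 and Siglech. H2-Aa was detected in 148 of the 174 cells, H2-Ab1 in 146, Cd74 in 163, Flt3 in 115 and Siglech in 45. With each cell thinned to 3000 UMIs, which left 158 DC-labelled and 3586 monocyte-labelled cells, Flt3 was detected in 43.0% against 3.54% of cells and Siglech in 24.1% against 0%. Unthinned, Flt3 was found in 66.1% and 7.85%, and Siglech in 25.9% and 0.0803%. Because the label had been made from the same transcripts, every difference between labels given here is a description and was not tested. A mouse RNA sequencing reference, also deposited, called only 2 of the 174 cells dendritic, and called 106 of them monocytes, 43 B cells and 10 macrophages. The label is therefore that of 1 reference, and the cells are called DC-labelled below.

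Antigen presentation genes stood higher in DC-labelled than in monocyte-labelled cells, for 11 of the 12 genes of the list in 6 of 6 libraries. H2-Aa (chromosome 17, 34282744 to 34287823, minus strand), which encodes the MHC class II alpha chain I-A, was at 9345, 8060 and 7601 CPM in the femur libraries and at 10607, 4824 and 5205 CPM in the mandible libraries. The DC-labelled cells were above the monocyte-labelled cells in 6 of 6 libraries, and mandible replicate 1 was the highest and mandible replicates 2 and 3 the lowest. The mean over the 6 libraries was 7607 ± 2269 CPM (SD, n = 6) in DC-labelled cells, 719.8 ± 382.8 CPM in monocyte-labelled cells and 2320.3 CPM in macrophage-labelled cells, a 10.6-fold higher mean than in monocyte-labelled cells. The beta chain gene H2-Ab1 had a 10.7-fold and the second beta chain gene H2-Eb1 a 12.1-fold higher mean, and both had the same order of libraries at the extremes. Cd74, which guards the peptide groove until it reaches the endosome, was at 16746 ± 4567 CPM against 1860 CPM, higher in 6 of 6 libraries.

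The genes that load and edit the peptide also stood higher. H2-DMa and H2-DMb1, which together form the peptide exchange factor, had 3.25-fold and 6.29-fold higher means than in monocyte-labelled cells. H2-Oa and H2-Ob, the subunits of the inhibitor of that factor, had the largest ratios of the list, at 37.9-fold and 28.04-fold. H2-Oa was at 116.6, 151.7 and 152.1 CPM in the femur libraries and at 140.1, 73.2 and 96.3 CPM in the mandible libraries, whereas monocyte-labelled cells had a mean of 3.21 CPM. Ciita, the transactivator that switches on the class II genes, was at 273.4 ± 88.04 CPM against 34.7 CPM. The list of 12 genes included 1 that was lower in DC-labelled cells in all 6 libraries, namely Ctss, the protease that trims the invariant chain, with 1142 CPM against 1514 CPM.

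Promoters of these genes are shown because their levels stood high together and because the class II genes share a short upstream box. The motif TGATTGG, the core of the Y box bound by the factor NF-Y, was searched on both strands, with CCAATCA as its other strand, in the 250 bases before each start of RefSeq on GRCm38.p6. It was present in 2375 of 32851 promoters (7.23%), and in 6 of the 10 promoter entries found for 9 genes of the list, 1 in each of H2-Aa, H2-Eb1, H2-DMb1, H2-DMb2, H2-Oa and H2-Ob. Both H2-DMa entries and those of Ctss and Ifi30 did not hold these letters. The motif ended 43 bases before the start in H2-Aa, 54 in H2-Eb1, 56 in H2-DMb1 and 38 in H2-Oa. These are matches of letters, and no binding was measured. The 4 sequences below run 5′ to 3′ on the strand of the gene with the motif in capitals, at chr17:34287824-34288073 (minus strand), chr17:34305617-34305866, chr17:34152941-34153190 and chr17:34092129-34092378 (plus strand for these 3), in that order.
H2-Aa: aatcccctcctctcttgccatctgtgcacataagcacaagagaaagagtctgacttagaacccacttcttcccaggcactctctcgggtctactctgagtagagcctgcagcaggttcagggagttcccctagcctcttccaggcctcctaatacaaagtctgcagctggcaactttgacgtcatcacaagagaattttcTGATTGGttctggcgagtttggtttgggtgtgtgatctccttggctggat
H2-Eb1: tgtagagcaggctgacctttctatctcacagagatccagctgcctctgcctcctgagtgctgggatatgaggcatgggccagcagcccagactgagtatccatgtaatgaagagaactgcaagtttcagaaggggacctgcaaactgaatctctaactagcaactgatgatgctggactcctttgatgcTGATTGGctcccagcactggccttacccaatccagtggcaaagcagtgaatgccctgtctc
H2-DMb1: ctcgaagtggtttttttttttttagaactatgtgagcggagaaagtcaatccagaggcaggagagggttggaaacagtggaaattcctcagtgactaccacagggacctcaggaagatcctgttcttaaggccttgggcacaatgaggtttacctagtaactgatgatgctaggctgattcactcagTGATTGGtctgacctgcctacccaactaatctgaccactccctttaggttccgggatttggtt
H2-Oa: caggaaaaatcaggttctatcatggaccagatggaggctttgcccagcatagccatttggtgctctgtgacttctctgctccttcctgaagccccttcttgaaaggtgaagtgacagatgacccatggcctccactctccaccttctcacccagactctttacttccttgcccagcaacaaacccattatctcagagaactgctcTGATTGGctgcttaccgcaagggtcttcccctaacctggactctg

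Single transcription factor and receptor genes known from dendritic cells also stood higher, but their lists as a whole did not. The 15 dendritic cell transcription factor genes summed to 3297 to 7460 CPM in DC-labelled and to 4113 to 5177 CPM in monocyte-labelled cells. The 9 growth factor receptor genes summed to 579.3 to 819.3 CPM against 825.0 to 1065 CPM. Flt3 had the smallest SD relative to its mean of the 5 markers, at 195.4, 223.6 and 173.1 CPM in the femur libraries and at 215.5, 183.1 and 217.2 CPM in the mandible libraries, with a mean 17.2-fold above that of monocyte-labelled cells. The sites overlapped fully. Zbtb46, a transcription factor gene of conventional dendritic cells, was at 92.3 ± 30.3 CPM against 1.54 CPM, and was lowest in mandible replicate 2 (46.6 CPM) and highest in mandible replicate 1 (140.1 CPM). Itgax, which encodes the dendritic cell integrin CD11c, was at 125.4 ± 37.2 CPM against 13.9 CPM. Lower than in monocyte-labelled cells in 6 of 6 libraries were Csf1r and Csf3r, the receptors for the macrophage and granulocyte growth factors, with means 3.49-fold and 9.0-fold higher in monocyte-labelled cells. Ccr2, the monocyte egress receptor, was still at 656.0 CPM in DC-labelled cells against 1260.9 CPM.

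**Figure D1:**
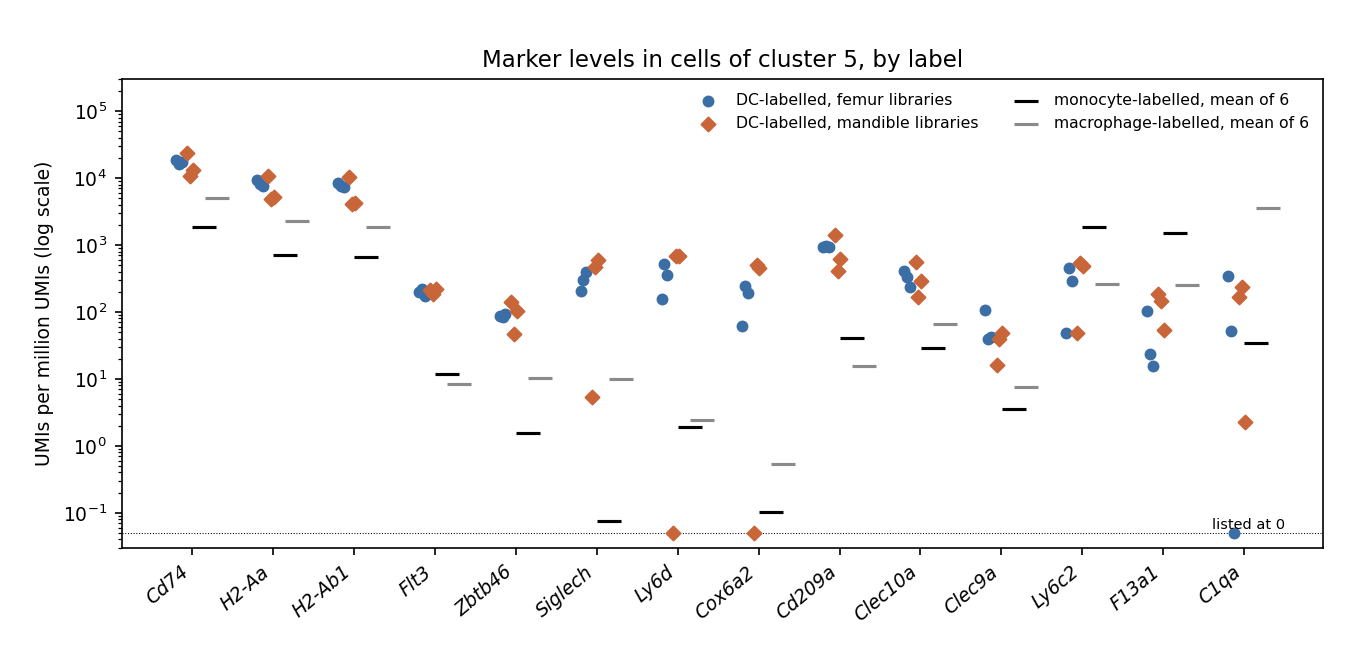
Level of 14 marker genes (CPM, log scale) in the DC-labelled cells of each library (blue circles, femur; orange diamonds, mandible) and the mean of the 6 libraries in monocyte-labelled (black bar) and macrophage-labelled cells (grey bar) of cluster 5. Flt3 lies within 173.1 to 223.6 CPM in all 6 libraries, while Ly6d and Cox6a2 are listed at 0 in mandible replicate 1 and Siglech is at 5.39 CPM there.

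By the naming rule (15 genes, at least 100 CPM in DC-labelled cells), the genes with the largest ratio of DC-labelled over monocyte-labelled cells were Siglech, Cox6a2, Ly6d, Cd7, Grm8, Klrd1, Atp1b1, Tmem163, Aff3, Ctnnd2, Ccr9, Hba-a1, Ccnd1, Hbb-bs and Srgap3. Ccnd1, which encodes cyclin D1, was at 349.9 ± 70.2 CPM against 8.93 CPM and was detected in 119 of 174 cells. Klrd1, which encodes the receptor subunit CD94 known from natural killer cells, was at 260.7 ± 104.0 CPM against 3.57 CPM and was detected in 113 cells. Ctnnd2 was detected in 84 cells and Srgap3 in 103. Hbb-bs and Hba-a1 are haemoglobin genes, detected in 24 and 13 cells, and of the 2792 haemoglobin UMIs in all DC-labelled cells 1221 were in 1 cell and 706 in another. The 5 genes with the lowest ratio (at least 500 CPM in monocyte-labelled cells) were Plcb1, Hp, Cebpb, F13a1 and Chil3, with means from 15.4-fold to 63.6-fold higher in monocyte-labelled cells. F13a1, a coagulation factor gene of classical monocytes, was at 87.7 CPM in DC-labelled cells against 1521 CPM, and Cebpb, a myeloid transcription factor gene, at 37.1 CPM against 854.4 CPM.

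Levels over all 174 cells averaged over unlike cells. Each cell was therefore placed in the range of 1 of 3 lists of 8 genes (pDC, cDC1 and cDC2) when at least 2 genes of that list had a UMI and more genes of it than of either other list. By this rule 39 cells lay in the pDC range, 65 in the cDC2 range and 29 in the range of the cDC1 list, and 41 lay in none, of which 22 were tied between lists. The ranges are groupings by detected genes and not cell types, since 31 of the 65 cDC2-range cells and 15 of the 29 cells in the range of the cDC1 list sat at the limit of the rule (exactly 2 genes or a lead of 1), against 2 of the 39 pDC-range cells. Genes of the lists define the ranges, so their levels between ranges are no result.

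In the pDC range a median of 7 of the 8 list genes were detected per cell. Siglech (chromosome 7, 55768178 to 55778925, plus strand), a sialic acid-binding receptor gene, was at 2082 CPM in these cells and at 4.44 CPM in the cDC2 range, and 34 of the 45 Siglech-positive cells also had Cox6a2 and 36 had Ly6d. Irf8, Runx2 and Bst2, which the rule did not use, were also high there. Irf8, a transcription factor gene needed for several dendritic lineages, was at 2691 CPM in the pDC range and at 87.4 CPM in the cDC2 range. Runx2, better known from bone-forming cells and also active in pDC, was at 2947 against 87.4 CPM, and Bst2, which encodes the surface antigen tetherin, at 2920 against 131.8 CPM. Il7r was at 246.2 against 11.9 CPM and Tlr7, a sensor of single-stranded RNA, at 133.3 against 11.9 CPM. Other genes of the lists that hold Tlr7 and Bst2 went both ways. Tlr8 was at 0 CPM in the pDC range of every library that had such cells. Tlr9 was at 0 CPM there as well, except for 9.02 CPM in mandible replicate 3. Over the libraries, Ifitm3 was at 0 to 153.0 CPM in the pDC range against 1036 to 2821 CPM in the cDC2 range. Ifi27l2a was at 285.6 to 560.9 against 631.2 to 1665 CPM, but Stat2 at 102.1 to 144.3 against 0 to 75.6 CPM. Conversely, H2-Aa was at 977.9 CPM in the pDC range and at 10650 CPM in the cDC2 range, and Zbtb46 at 6.84 against 124.4 CPM. Flt3 was at 201.7 and 242.9 CPM. Itgam, the gene of the selected antigen, was detected in 4 of 39 pDC-range cells and in 52 of 65 cDC2-range cells.

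The second reference label and the finer clustering set the pDC-range cells apart. The rule did not use them, but they come from the same transcripts. Of the 43 cells that the other reference called B cells 34 were in the pDC range, and 34 of the 39 pDC-range cells were in fine cluster 16 at a resolution of 0.5. Of the 65 cDC2-range cells 59 were in fine cluster 8 and 54 were called monocytes by the other reference. These did not set the cDC2 range apart from the rest. Fine cluster 8 held 116 of the 174 cells, among them 26 of the 29 cells in the range of the cDC1 list. It also held 28 of the 41 cells in no range. The other reference called 22 of those 29 and 27 of those 41 cells monocytes.

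The pattern held in each library that had such cells. H2-Aa in the pDC range was at 1634, 656 and 1499 CPM in the femur libraries and at 969 and 811 CPM in mandible replicates 2 and 3. In the cDC2 range it was at 12017, 12882 and 7100 CPM and at 10991, 10115 and 9601 CPM in the mandible libraries. The value of the cDC2 range was the higher one in every library that had both, and the lowest of these was that of femur replicate 3. Per cell, genes of the MHC class II list had a median of 630.6 UMIs per 10000 UMIs of the cell in the cDC2 range (32.7 to 1056) and of 37.0 in the pDC range (4.096 to 205.2), so single cells of the ranges overlapped. H2-DMb2, with 88 UMIs in all DC-labelled cells, belongs to this list and to the cDC2 list that the rule used.

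**Figure D2:**
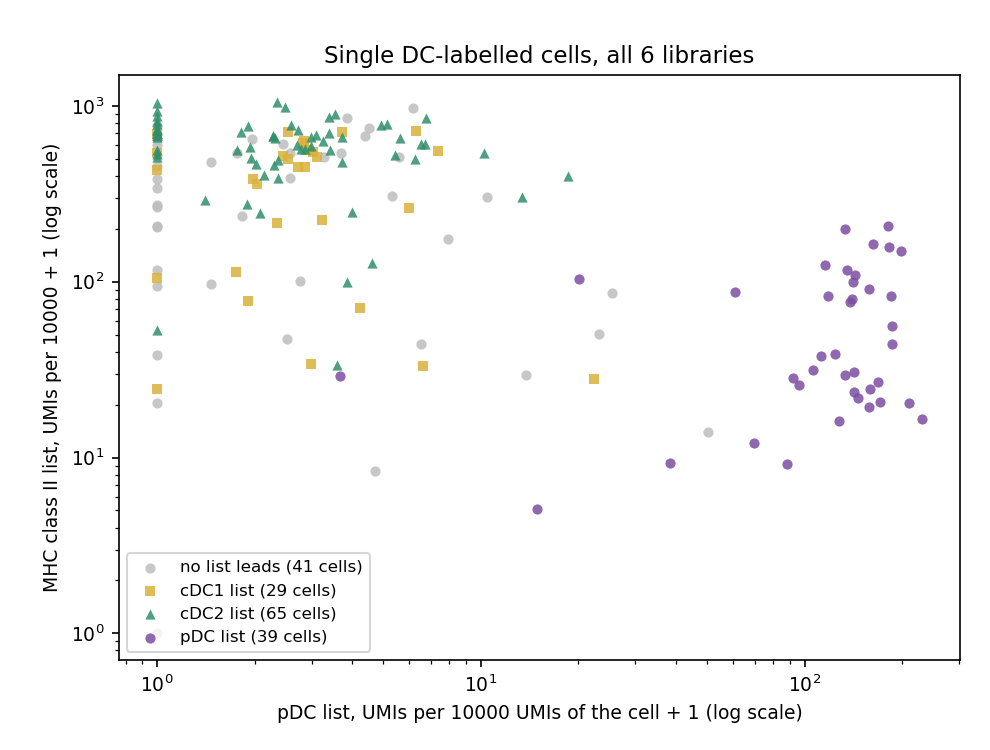
Each point is 1 DC-labelled cell of any library, with UMIs of the 8 genes of the pDC list (x axis) and of the 12 genes of the MHC class II list (y axis) per 10000 UMIs of the cell, plus 1, on log scales, coloured by the list that leads in the cell. The 39 pDC-range cells lie mostly to the right, with a median of 139.2 on the pDC list, and the 65 cDC2-range cells at the upper left, with a median of 630.6 on the MHC class II list.

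The cDC2 list held lectin genes such as Cd209a, Clec10a and Mgl2, and also Itgax, which was detected in 86 of the 174 cells. Cd209a (chromosome 8, 3743397 to 3748984, minus strand) was detected in 105 of the 174 cells and was at 929.0, 962.1 and 928.5 CPM in the femur libraries and at 1390, 409.5 and 609.2 CPM in the mandible libraries. Clec10a was detected in 96 cells and 77 cells had both. Cd209a and Siglech were found together in 20 cells. Mgl2 was detected in 43 cells. Ccl17 was seen in 1 cell, and Clec4a4 in 4 cells. Cd83, a gene of activated antigen-presenting cells, was at 253.3 CPM in the cDC2 range and had no UMI in the pDC range.

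The range of the cDC1 list lacked Xcr1. Xcr1 and Gcsam had no UMI in any of the 174 cells, a count that allows a share of up to 1.72% of cells with a UMI. Clec9a, the dendritic receptor for exposed actin, was detected in 49 of the 174 cells, and was at 49.3 CPM in the range of the cDC1 list and at 99.2 CPM in the pDC range. Wdfy4 and Naaa, which fill most of that range, were detected in 64.5% and 69.3% of monocyte-labelled cells, and 3237 cells of cluster 5 without the DC label met the same rule. The cells in that range are therefore not named as cDC1.

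A further small set had genes of mature, migrating dendritic cells. Of 6 such genes, at least 3 were detected in 3 of the 174 cells, of which 2 were from femur replicate 1 and 1 from mandible replicate 3. Ccl22, which encodes a chemokine for regulatory T cells, had 206 UMIs in 4 cells, of which 200 were in 1 cell of mandible replicate 3. Fscn1, an actin-bundling gene, had 60 UMIs in 4 cells and Apol7c 94 UMIs in 3 cells. A level of these genes per library is that of 1 or 2 cells.

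Markers of other cell types were counted per cell. The neutrophil genes S100a9 and S100a8 each had a UMI in 173 of the 174 cells. At least 3 of 8 macrophage genes were detected in 18 cells, 9 of them from femur replicate 1, and Mertk, a defining macrophage gene, had a UMI in 1 cell. At least 3 of 8 B cell genes were detected in 3 cells, 1 from each mandible library, and at least 3 of 8 T or natural killer cell genes in 2 cells of mandible replicate 3. Of the 6 basophil and mast cell genes, 5 were at 0 in all DC-labelled cells. Summed over the 8 genes of the neutrophil list, the level ranged from 5324 to 22688 CPM in the femur libraries and from 2758 to 3619 CPM in the mandible libraries. Of the femur UMIs of this list 4754 were in 1 cell of femur replicate 2, without which the femur libraries ranged from 4153 to 9642 CPM. The part of these markers in the results below was not tested.

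Among cells selected for CD11b, which cannot give shares of the whole marrow, the share of DC-labelled cells was compared between the sites. They were 3.29%, 1.61% and 1.52% of the cells of cluster 5 in the femur libraries and 1.68%, 2.93% and 3.42% in the mandible libraries. The sites overlapped, with femur replicate 1 next to the highest mandible library and mandible replicate 1 next to the lowest femur libraries. The means were 2.14% ± 0.997 (SD, n = 3) and 2.68% ± 0.896 (SD, n = 3), and the 2-sided exact permutation test gave p = 0.50, where 0.10 is the smallest value that 3 against 3 libraries allow. Taken over all kept cells, DC-labelled cells averaged 0.212% ± 0.123 for femur and 0.379% ± 0.172 for mandible libraries (SD, n = 3 each, exact permutation p = 0.30).

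Among the DC-labelled cells, the pDC range held 2, 5 and 4 cells of the femur libraries and 0, 14 and 14 cells of the mandible libraries. Mandible replicate 1 had no pDC-range cell among 16 (0%, exact Clopper-Pearson 95% interval up to 20.6%), although 3 cells of its cluster 5 met a stricter form of the rule (3 genes and a lead of 2) under another label, while mandible replicates 2 and 3 had the highest shares, 36.8% (21.8 to 54.0%) and 35% (20.6 to 51.7%). The interval covers counting error only. The means were 15.2% ± 8.42 in the femur and 23.9% ± 20.8 in the mandible libraries (SD, n = 3 each, exact permutation p = 0.60). The cDC2-range share was 41.4% ± 6.40 against 39.8% ± 26.8 (exact permutation p = 0.80, n = 3 each), and that of the cDC1 list 15.1% ± 2.01 against 15.9% ± 13.7 (exact permutation p = 1, n = 3 each). Adjusted by Benjamini-Hochberg over these 5 shares, every exact permutation p was 1. The spread among the mandible libraries was larger than the difference between the sites for each range.

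**Figure D3:**
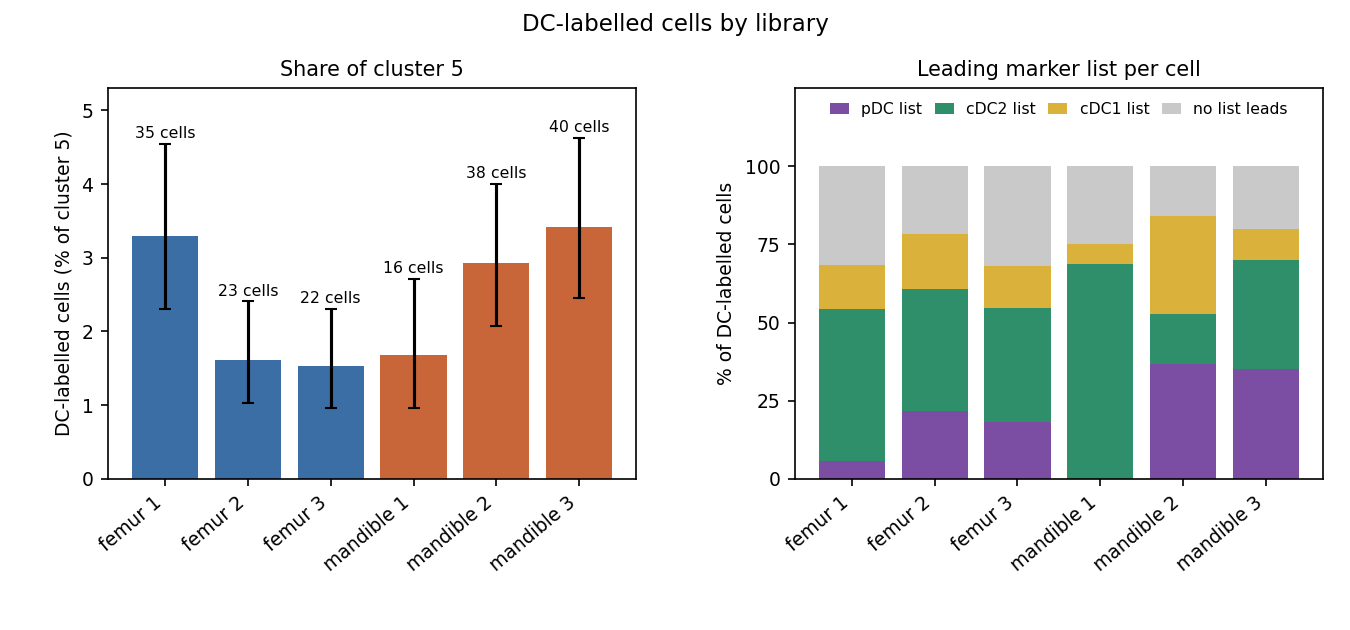
Left, DC-labelled cells as a percentage of cluster 5 in each library (bars start at 0) with exact Clopper-Pearson 95% intervals and the number of cells, from 1.52% in femur replicate 3 to 3.42% in mandible replicate 3. Right, percentage of the DC-labelled cells of each library in which the pDC, cDC2 or cDC1 list leads or none does, with a pDC-range share from 0% in mandible replicate 1 to 36.8% in mandible replicate 2.

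Levels within DC-labelled cells were then compared between the sites on the UMIs summed per library, with the edgeR quasi-likelihood test over 4484 genes. One gene, Ebf1, passed a false discovery rate of 0.05 and was higher in the mandible libraries, which is 0.0223% of the genes tested, and 0% were lower. Without adjustment 304 genes had p under 0.05 (6.78%), 182 of them lower and 122 higher in the mandible libraries, and the sites did not overlap in CPM for 12.4% of all genes tested. A fold change above 0 was found for 49.4% of the genes tested. With the replicate number of the titles as a block, 2 genes passed, Ebf1 and Fn1, and 128 of the 187 UMIs of Fn1 were in 1 cell. With DESeq2 8 genes passed, of which S100a8, S100a9, Camp, Lcn2, Ngp and Lrmda were lower and Vim and Aff3 higher, and Ebf1 had no adjusted p. Leaving out femur replicate 2, femur replicate 3, mandible replicate 2 or mandible replicate 3 left 0 genes, at 193 to 401 genes with an unadjusted p under 0.05. Leaving out femur replicate 1, the only female library, gave 3 genes (Cxcl9, S100a8 and S100a9, without Ebf1), and leaving out mandible replicate 1 gave 6, with Ebf1 among them.

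Ebf1 (chromosome 11, 44617317 to 45008091, plus strand) encodes a transcription factor that specifies B cells. No UMI of it was found in any femur library (0 in each), against 27, 29 and 36 in the mandible libraries. The sites did not overlap, and the adjusted p was 0.0353 (edgeR quasi-likelihood test). With 0 UMIs in the femur libraries, Ebf1 passed the filter on low counts through the mandible libraries alone. In monocyte-labelled cells its log2 fold change was 2.55 (SE 0.68, edgeR adjusted p = 0.173). The difference between the 2 site effects of Ebf1 did not pass (limma, difference 1.72, SE 0.88). In DC-labelled cells its mean in the mandible libraries was 107.5 ± 33.8 CPM (SD, n = 3). No fold over the 0 UMIs of the femur libraries is given, because Ebf1 UMIs lay in few cells and UMIs of 1 cell are not independent draws. These 92 UMIs lay in 5 cells, and 97.8% of them in 3 cells, 1 from each mandible library, which had 26, 29 and 35 Ebf1 UMIs. These 3 cells were also the ones that had at least 3 B cell genes, with 5, 6 and 7 of 8 detected. In the order of the mandible libraries they had 135, 70 and 63 UMIs of H2-Aa and 1, 0 and 10 of Cd209a. Of the kappa light chain gene Igkc they had 8, 14 and 87 UMIs, and of Siglech 0 each. By the rule of ranges 2 of them lay in the cDC2 range, and what type of cell they are was not tested. Without the 25 cells that had 10 or more haemoglobin UMIs or at least 3 genes of the B cell, T or natural killer cell, or macrophage lists, Ebf1 fell under the filter on low counts and was no longer tested, as leaving out those 3 cells fixes, and 0 of the other genes passed (edgeR quasi-likelihood test, 178 with an unadjusted p under 0.05).

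The other genes with the smallest p did not pass the threshold and are given as values. By the naming rule these were Igkc, Diaph3, Vim and Aff3 toward the mandible and S100a9, S100a8, Pparg, Ifit3 and Tsc22d1 toward the femur, all without overlap between the sites and with an adjusted p of 0.393 to 0.418 (edgeR). Igkc, the kappa light chain gene, had 128 UMIs in 17 cells, of which 87 were in 1 cell. Vim, which encodes the intermediate filament vimentin, was spread over 142 cells, at 527.9, 519.0 and 661.0 CPM in the femur libraries and at 997, 1588 and 1198 CPM in the mandible libraries (log2 fold change 1.07, SE 0.24). Each mandible library was above each femur library. Its log2 fold change in monocyte-labelled cells was 0.35 (SE 0.19). Aff3 was detected in 80 cells, with 89.7% of pDC-range cells among them. It was at 120.0, 155.7 and 89.2 CPM in the femur libraries and at 188.5, 329.6 and 595.7 CPM in the mandible libraries. Its log2 fold change was 1.51 (SE 0.38), against 2.06 without pDC-range cells and 1.03 in cDC2-range cells alone. In monocyte-labelled cells it was 2.42 (SE 0.69). The naming rule required that the sites not overlap.

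Toward the femur, S100a9 and S100a8, the calprotectin genes of neutrophils, had the smallest p. S100a9 was at 2242, 9402 and 4034 CPM in the femur libraries and at 1099, 1155 and 1395 CPM in the mandible libraries (log2 fold change -2.20, SE 0.43). Of its 4952 UMIs 1961 were in 1 cell of femur replicate 2, the deepest DC-labelled cell with 26780 UMIs. Without that cell femur replicate 2 was at 1761 CPM and the log2 fold change was -1.19, with the sites still apart. S100a9 and S100a8 passed without femur replicate 1 (edgeR adjusted p = 0.0262 and 0.0369) and with the block on the library number (0.0191 each), fits that still hold that cell, and did not pass with the block on the title number (0.112 and 0.135). The list of 8 neutrophil genes had 7 tested, and 0 passed, while 7 had an unadjusted p under 0.05. All 7 had a negative log2 fold change, with a median of -1.59 against -0.01 over all genes tested, and the median was -0.92 without that cell. The same list in monocyte-labelled cells was at 7919 to 34107 CPM in the femur and at 11043 to 17438 CPM in the mandible libraries, where the sites overlapped.

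Pparg, a lipid-sensing nuclear receptor gene, was at 212.5, 39.9 and 57.7 CPM in the femur libraries and at 16.2, 6.66 and 13.4 CPM in the mandible libraries. It had 94 UMIs in 25 cells, and single cells held 28 and 25 of them. Tsc22d1 was detected in 95 cells, at 222.8, 131.7 and 225.6 CPM against 48.5, 89.9 and 85.1 CPM (log2 fold change -1.41, SE 0.31).

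**Figure D4:**
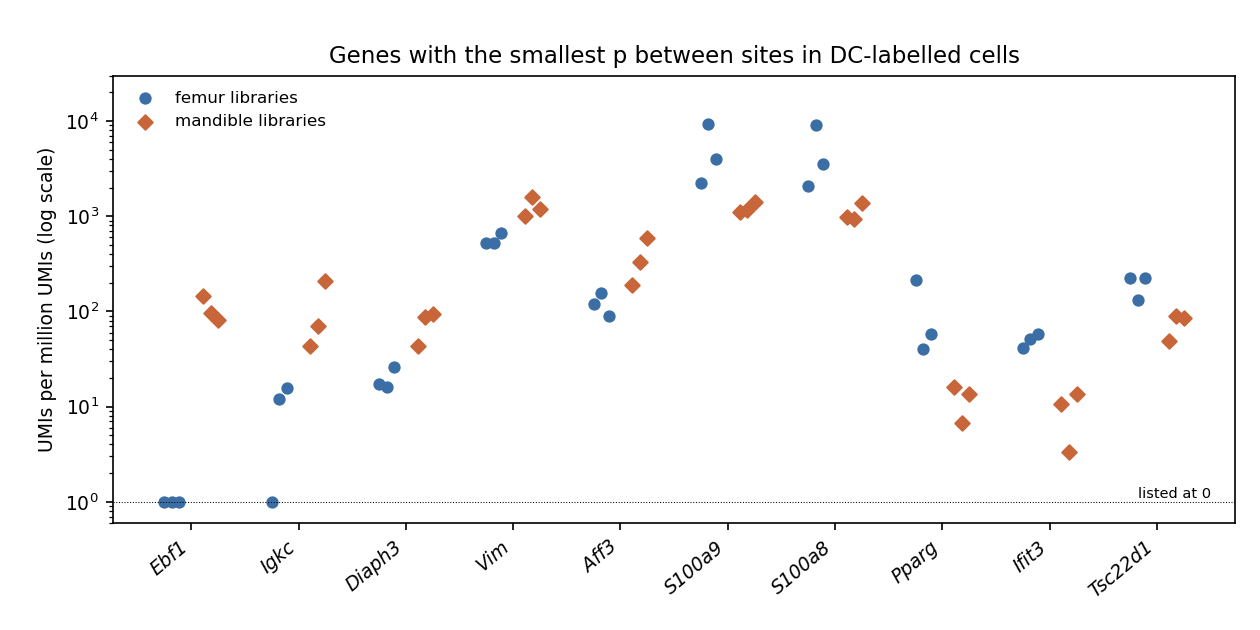
Level of the 10 genes named by the smallest p between sites (CPM, log scale) in the DC-labelled cells of each femur (blue circles) and mandible library (orange diamonds), where the dotted line marks genes listed at 0. The sites do not overlap for any of them, since the rule required it, and of these genes Ebf1 alone passed the adjusted threshold (adjusted p = 0.0353, edgeR).

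The fixed gene lists were read in the same fit, and apart from Ebf1 in the B cell list 0 genes of any list passed. Of 12 interferon response genes tested 11 had a negative log2 fold change, with a median of -0.75, and 6 had an unadjusted p under 0.05. Ifit3, an antiviral effector gene, was at 41.1, 51.9 and 57.7 CPM in the femur libraries and at 10.8, 3.33 and 13.4 CPM in the mandible libraries (45 UMIs in all). Isg15, a ubiquitin-like modifier gene, was at 51.4, 139.7 and 204.6 CPM against 21.5, 23.3 and 49.3 CPM (log2 fold change -2.02, SE 0.50, edgeR adjusted p = 0.418). Isg15 did not pass with the block on the title number. With a block on the library number, in the 4 libraries that share one, Isg15 passed (log2 fold change -2.98, edgeR adjusted p = 0.0494). In that fit 12 of 12 genes of the list were negative, and its pairs of libraries correlated at -0.05 and 0.09. Without pDC-range cells the list's median was -0.66 (11 genes tested), and in cDC2-range cells alone it was -0.38 (5 genes tested). Bst2, the gene of the list that marked the pDC range, had the only positive log2 fold change. The summed list overlapped between the sites, at 3617, 4463 and 5791 CPM in the femur libraries and 3598, 3343 and 3787 CPM in the mandible libraries, and was lower in the mandible library of each title-number pair. It was at 7085 to 8146 CPM and 6319 to 7200 CPM in monocyte-labelled cells.

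Of 11 proliferation genes tested all had a positive log2 fold change, with a median of 0.98, and 3 had an unadjusted p under 0.05, namely Mcm5, Tyms and Top2a. The summed list was at 198.8, 898.2 and 849.8 CPM in the femur libraries and at 764.9, 1595 and 1328 CPM in the mandible libraries. It was higher in the mandible library of each title-number pair, and femur replicate 1 stood lowest. By library number the pairs went both ways. Mandible replicate 1 (764.9 CPM) was below femur replicate 2 (898.2 CPM), and mandible replicate 2 (1595 CPM) was above femur replicate 3 (849.8 CPM). Without femur replicate 1, 9 of 11 genes had a positive log2 fold change and the median was 0.47. Without cells carrying markers of another type 6 of 7 genes tested were positive (median 0.66), and with the block on the library number 8 of 9 were (median 0.43), both with 0 genes at an unadjusted p under 0.05 (edgeR). The fit without cells carrying markers of another type left no cell out by neutrophil genes. In DC-labelled cells the highest single cell held 7, 102 and 68 UMIs of the proliferation list in femur replicates 1 to 3. In mandible replicates 1 to 3 it held 65, 75 and 114. The cell with 102 was the deepest DC-labelled cell, with 4754 UMIs of the neutrophil list. In monocyte-labelled cells the same proliferation list was at 525.0, 470.3 and 857.4 CPM and at 912.7, 1978 and 1431 CPM. The authors' phase calls put 14.3%, 13.04% and 18.2% of the DC-labelled cells of the femur libraries and 18.8%, 31.6% and 22.5% of those of the mandible libraries in S or G2M, which was not tested.

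Of the 12 MHC class II genes all were tested, 10 had a negative log2 fold change, 1 had an unadjusted p under 0.05 (H2-Ob) and 0 passed. The median was -0.40. Without mandible replicate 1, the library with no pDC-range cells and the highest levels, it was -0.82, 8 of the 12 genes had an unadjusted p under 0.05 and H2-Eb1 passed (log2 fold change -1.18, edgeR adjusted p = 0.0470). The median was -0.10 without mandible replicate 2, -0.15 without mandible replicate 3 and -0.20 in cDC2-range cells alone, each with 0 genes at an unadjusted p under 0.05 (edgeR). For H2-Ab1 the log2 fold change was -0.36 (SE 0.34, edgeR adjusted p = 0.880), and in monocyte-labelled cells, where it was 1 of 10 genes past the threshold among the same genes, it was -1.56. The difference between the 2 site effects of H2-Ab1 did not pass (limma, difference 1.03, SE 0.29, adjusted p = 1.000). The 8 pDC list genes had 6 positive and 2 negative log2 fold changes with a median of 0.24, which became 0.79 without mandible replicate 1, -0.05 without mandible replicate 2, -0.18 without mandible replicate 3, -0.16 with the replicate block on the title number, and -0.996 with that on the library number (7 of 8 negative). Of 15 immediate early genes tested 11 were positive, with a median of 0.35 that became 0.29 with the replicate block on the title number, 0.84 with that on the library number (7 genes with an unadjusted p under 0.05), 0.07 without femur replicate 3 and -0.18 without mandible replicate 1. The summed list was at 5224, 3916 and 2901 CPM in femur replicates 1 to 3 and at 7181, 4941 and 3162 CPM in the mandible replicates. It was higher in the mandible library of each pair of the same replicate number. The same held in monocyte-labelled cells, at 6964, 5509 and 4065 CPM against 8142, 6652 and 4585 CPM. Of 5 inflammatory genes tested 4 were negative, with a median of -0.73, and 3 had an unadjusted p under 0.05, namely the cytokine gene Il1b, the chemokine gene Ccl4 and Nfkbiz. Without cells carrying markers of another type 3 genes of this list were tested, with a median of -0.16 and 1 at an unadjusted p under 0.05. The summed inflammatory list was at 606.8 to 776.4 CPM in the femur and at 430.0 to 479.5 CPM in the mandible libraries, without overlap. This sum was not tested. Of the 5 inflammatory genes tested 1 did not overlap between the sites, beside 12.4% of all genes tested. In the remaining lists 0 genes passed. These were 14 dendritic cell transcription factor, 6 cDC2 list, 5 cDC1 list, 5 growth factor receptor, 7 migration, 12 mitochondrially encoded, 7 monocyte, 4 costimulation, 4 macrophage and 6 nucleic acid sensing genes tested. Their median log2 fold changes lay between -0.69 (macrophage list) and 0.27 (transcription factors), and the median of each of these lists was of either sign over the alternatives run. For the macrophage list it was 0.58 without femur replicate 1, which held 9 of the 18 cells with macrophage markers. The mature dendritic cell, T and natural killer cell, erythroid, basophil and mast cell, granulocyte progenitor, and tooth and bone lists had 0 genes past the filter on low counts.

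**Figure D5:**
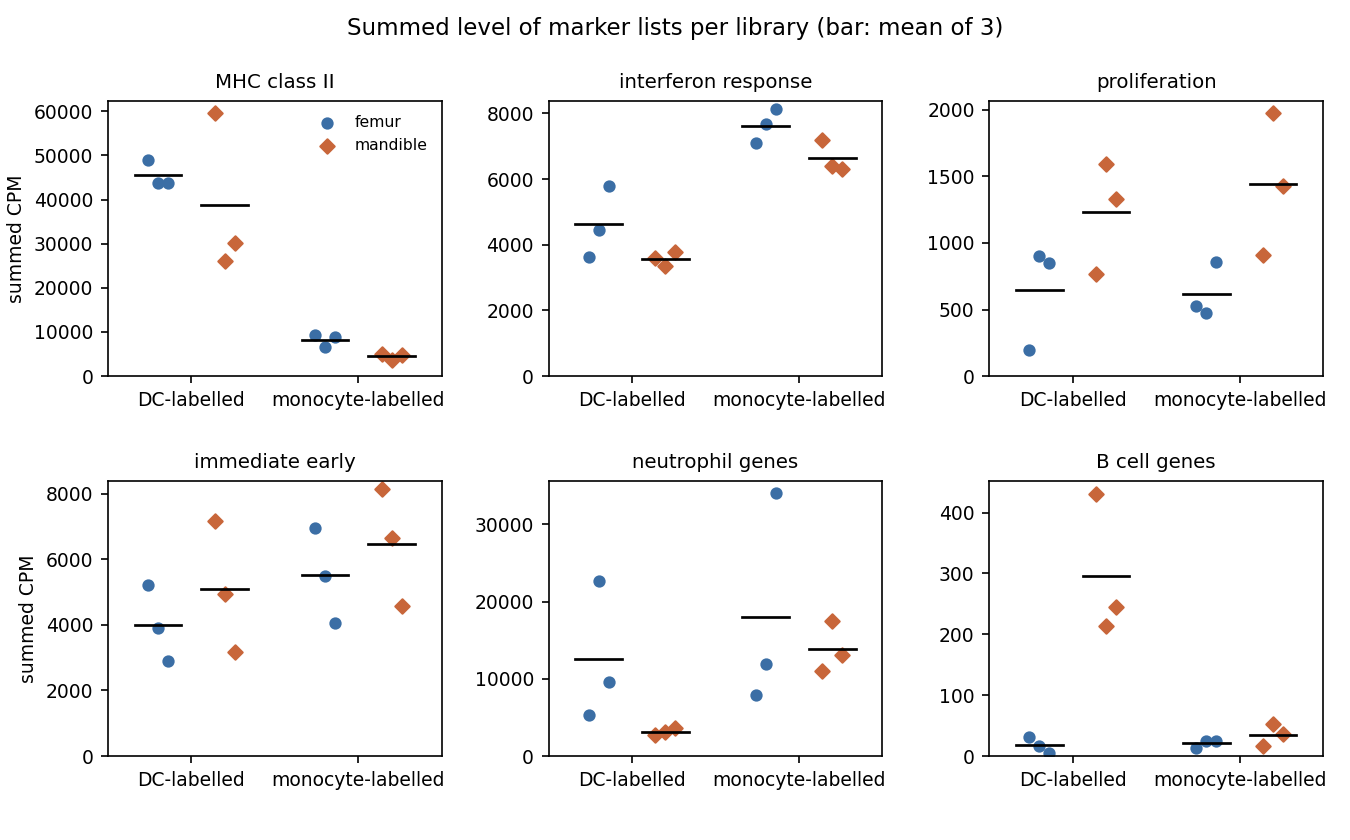
Summed CPM of 6 marker lists in each library (blue circles, femur; orange diamonds, mandible; black bar, mean of 3) for DC-labelled and for monocyte-labelled cells of cluster 5, with all y axes starting at 0. The MHC class II list lies between 26177 and 59579 CPM in DC-labelled cells and at most at 9257 CPM in monocyte-labelled cells, and femur replicate 2 is at 22688 CPM on the neutrophil list, or at 4153 CPM without 1 cell.

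Whether the effect of site differed between DC-labelled and monocyte-labelled cells was tested with limma on the difference of the 2 log2 levels per library. Of 4484 genes 0 passed (0%), and 160 had an unadjusted p under 0.05 (3.57%). The smallest p was that of Itgax, with a log2 fold change of -0.65 (SE 0.28) in DC-labelled and of -2.11 (SE 0.28) in monocyte-labelled cells (limma adjusted p of the difference 0.812). In DC-labelled cells it was at 185.1, 107.8 and 157.4 CPM in the femur libraries and at 97.0, 93.2 and 112.0 CPM in the mandible libraries, and the sites overlapped. Next came Vim and Lrmda, at a limma adjusted p of 1.00 each. Lrmda was at 757.6, 315.4 and 299.0 CPM in the femur libraries and at 199.3, 183.1 and 154.5 CPM in the mandible libraries, with femur replicate 1 highest.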

How the data were processed

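Marrow cells of 3 femur and 3 mandible libraries were profiled with 10x 3′ chemistry. The authors deposited raw UMI counts per gene and cell, made with Cell Ranger (7.0.1 in the submitters' processing notes, 7.1.0 in the matrix headers) on mm10. They also deposited a cell table with cluster numbers, reference labels and phase calls as text and the mitochondrial percent, from Seurat with SCTransform, integration and SingleR (R 4.1.0). Their filters kept cells with 600 to 6000 genes and at most 20% mitochondrial counts. Doublet removal is not given in the sources used here, and no doublet caller was run. Kept cells held 82962160 to 244946998 UMIs per library. Strand handling is not given in the sources used here.

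Members were the cells with the DC label in cluster 5. The members and the gene lists were chosen with earlier results of these data known. UMIs were summed per library and tested between sites with edgeR 4.0.16 (quasi-likelihood, TMM factors, filter on low counts, Benjamini-Hochberg threshold 0.05). The difference between labels was tested with limma 3.58.1 on log2 CPM (prior count 2), and shares with exact permutation tests (scipy 1.17.1, 2-sided). Intervals are exact 95% binomial and cover counting error only, as does the limit of 3 counts for a count of 0. Alternatives used DESeq2 1.42.0, R 4.3.3 and python 3.11.15, and the tests were tested on simulated data. Between sites, the genes named were those past the threshold with at least 10 CPM and, up to 5 per direction, those of smallest p with no overlap and at least 20 CPM. The 3 smallest p of the difference between labels were named as well, and genes of the lists could be named. Between labels, the 15 highest (at least 100 CPM) and 5 lowest (at least 500 CPM in monocyte-labelled cells) ratios were named, with 1 CPM added to both means. Xist, Tsix and Y-linked genes were left out. Deviations from the site means correlated at 0.22, 0.12 and 0.18 between libraries with the same replicate number in their titles. Between libraries with the same library number they correlated at -0.05 and 0.09. The main fits used no pairing. Blocks on the title number and on the library number were run as alternatives. Positions are those of mm10 (GENCODE vM21).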

Additional observations from a re-analysis of the deposited data

Results flagged for a closer look

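Cells resembling the DC-labelled cells in their marker genes also lay in cluster 5 without the DC label, which the comparisons did not use. Under a stricter rule (at least 3 genes of a list and 2 more than of each other list) 72 cells of cluster 5 lay in the pDC range, and 35 of them had another label (0, 5 and 3 in the femur and 3, 14 and 10 in the mandible libraries). Of these 35, 33 had a Siglech UMI, with a median of 8385 UMIs per cell, and the same reference called 12 of the 33 neutrophils, 12 pro-B cells, 7 B cells and 2 stem cells. Under the same rule 95 cells lay in the cDC2 range and 61 of them had no DC label, of which 31 were called monocytes, 26 neutrophils, 3 macrophages and 1 microglia. Cd209a was detected in 44 of these 61 cells.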

How the results depend on the processing

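The count of genes past the threshold between sites (1, Ebf1, with edgeR) moved with the processing. It was 8 with DESeq2, 124 with no filter on low counts (14605 genes tested), 2 with the replicate block on the title number and 7 with a replicate block on the library number (4 libraries), namely Cxcl9, Isg15, S100a8 and S100a9 lower and Ebf1, F13a1 and Fn1 higher. It was 0 in cDC2-range cells alone (180 genes with an unadjusted p under 0.05) and 0 without cells carrying markers of another type (178 genes), and in both Ebf1 fell under the filter on low counts and was not tested. Leaving out 1 replicate gave 0 to 6 genes. Ebf1 passed only without mandible replicate 1 among these 6 fits (adjusted p 0.0206 to 0.261, edgeR). The cause was not tested. With DESeq2 size factors, without the cells of most UMIs, without pDC-range cells and without the cell with the most S100a9 UMIs the count was 1. The last 2 and the 2 that gave 0 above were chosen after seeing the data. The replicate block on the title number changed no other call. The 124 genes without the filter on low counts included genes that rest on 1 cell. Among them were Ccl22, with 200 of 206 UMIs in 1 cell, and Fn1, with 128 of 187. They also included Xist and Tsix, and the only female library was a femur library. The test of the difference between labels called 0 genes under each alternative run. Leaving out 1 library moved the mandible minus femur difference in the share of cluster 5 from 0.533 to between 0.162 (without mandible replicate 3) and 1.11 percentage points (without femur replicate 1), that in the share of all kept cells from 0.167 to between 0.0982 (without mandible replicate 3) and 0.263 (without mandible replicate 1), and that in the pDC-range share from 8.74 to between 2.29 (without mandible replicate 2) and 20.7 (without mandible replicate 1). The differences for the cDC1 list and cDC2 ranges were of either sign, from -6.98 to 5.69 and from -16.0 to 10.5. The libraries held 16 to 40 DC-labelled cells, and the size of difference in shares that these numbers could show was not measured.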
